A study of Homo sapiens with 6 samples.

Results

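Transcripts of p53 target genes were compared between HCT116 cells carrying a lentiviral hairpin against NFX1-91 and cells of the same line with a control β-galactosidase hairpin. HCT116 is an established human colon cancer line known to carry wild-type p53, and NFX1-91 is a splice form of the zinc finger protein NFX1, known as a repressor of the telomerase gene TERT. Both groups are stable transductants with the lentiviral vector FUGW, so the control cells carry a vector and a hairpin too. Each group has 3 Affymetrix arrays of total RNA, and effects of the target and of the hairpin sequence itself cannot be told apart in this design. A list of 39 known p53 targets, feedback regulators included, was matched to the array annotation, and 33 had a probe set that reads no other annotated gene. They are 33 of 11963 genes measured in this way. BBC3, RRM2B, BTG2, TP53INP1, FDXR and SERTAD1 were the 6 without one and were not analysed here as genes, nor was the transcript of p53 itself. Each gene is represented by its brightest probe set over all 6 arrays, without regard to the groups.

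The transcription factor p53 is held at a low level by the ubiquitin ligase MDM2 and accumulates when DNA damage or other stress weakens that hold. It then binds paired half-sites in DNA and raises the transcription of genes that stop the cell cycle, repair DNA, adjust metabolism or start apoptosis. MDM2 and PPM1D are themselves targets and close a negative feedback loop. Many targets also respond to other factors, and p53 protein was not measured.

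Values are signals scaled to an array mean of 500, and log2 fold changes are for NFX1-91 shRNA over control shRNA on the log2(signal + 16) scale, which understates changes of dim genes. A gene was called higher or lower at an adjusted p under 0.05 by limma with Benjamini-Hochberg adjustment over all 11963 genes. The labels do not tie the arrays to separate cultures. The p-values therefore rest on array-to-array spread alone, which may be technical, and 3 arrays per group limit the precision. In bulk RNA, fewer cells of a type and less RNA per cell cannot be told apart. The brightest NFX1 probe set did not pass the test (log2 fold change -0.13, SE 0.0954, adjusted p = 0.362), with signals of 124, 139 and 138 in the NFX1-91 shRNA arrays, against 159, 144 and 139 in the control arrays. The next brightest NFX1 probe set, with a mean of 76.3 in the NFX1-91 shRNA arrays and 80.7 in the control arrays, did not pass either (log2 fold change -0.06, SE 0.122, adjusted p = 0.770, over probe sets). The remaining, dim NFX1 probe set read 8.87, 8.83 and 4.56 in the NFX1-91 shRNA arrays, against 16.8, 17.7 and 24.4 in the control arrays. Only this one fell (log2 fold change -0.60, SE 0.143, adjusted p = 0.0128, over probe sets), and which splice form each probe set detects was not analysed here. Of 10 colon epithelial markers 2 were called higher and 3 lower, with VIL1 below a signal of 16 in every array. Their summed signal ran from 29113 to 29358 in NFX1-91 shRNA arrays and from 24554 to 25333 in control arrays. KRT18 and KRT8 were the 2 called higher, with means of 10739 and 7065 in NFX1-91 shRNA arrays, against 7403 and 5556 in control arrays. EPCAM, CDH1 and ELF3 were the 3 called lower, so the higher sum does not describe the markers as a set. Of 8 fibroblast markers 0 were called, with summed signals of 296 to 349 in NFX1-91 shRNA arrays and 263 to 349.7 in control arrays, and LUM, PDGFRB, POSTN and FAP below 16 throughout. Of 6 blood cell markers 1, HBB, was called higher (0.45), with sums of 80.2 to 102 in NFX1-91 shRNA arrays and 61.4 to 73.8 in control arrays. CD3D, CD14 and LYZ lay below 16 in every array, and the part of these markers in the results was not tested.

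Of the 33 measured p53 target genes, 15 were higher, 5 were lower and 13 did not pass the test in cells with the NFX1-91 hairpin. The higher calls make up 45.5% of the members, where 14.7% of all genes were called higher. The lower calls make up 15.2%, where 17.8% of all genes were called lower. The median log2 fold change was 0.17 over the members and 0.0036 over all genes, and 23 of the 33 members had a positive one. Called or not, 18 members had every NFX1-91 shRNA array above every control array and 7 had every one below, against 20.6% and 22.9% of all genes, or 43.5% in either direction. A change of at least 1.5-fold was reached by 6 of the higher and 2 of the lower members, with 3.05% and 5.79% of all genes past the same bounds. At an adjusted p under 0.01 there were 13 higher and 4 lower members, beside 9.5% and 12.9% of all genes. Without the dimmest 40% of genes, 18 members were higher and 6 lower. In that setting 1817 of 7178 genes were higher and 2135 lower, a larger share in each direction than with dim genes included. The members did not move as a block: the lowest log2 fold change was -0.88 for CCNG2 and the highest 0.97 for ZMAT3.

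**Figure D1:**
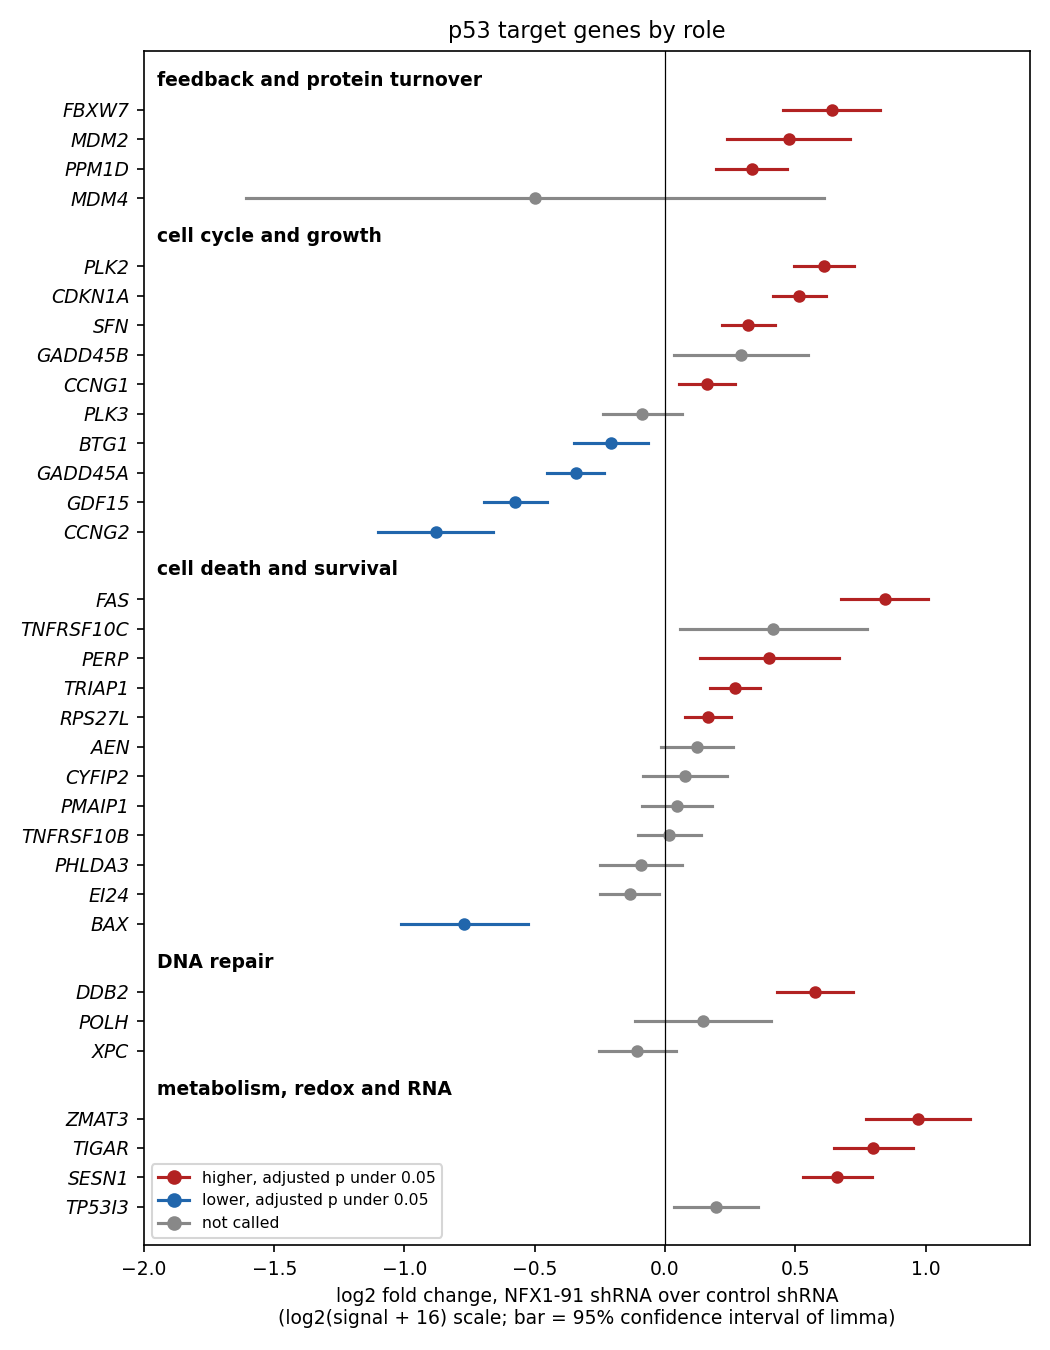
Log2 fold change of the 33 p53 target genes (x axis, NFX1-91 shRNA over control shRNA, log2(signal + 16) scale) with its 95% confidence interval, grouped by role (y axis). In the metabolism, redox and RNA group 3 of 4 genes were higher and 0 lower, and in the cell cycle and growth group 4 were higher and 4 lower.

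A p53 binding site can lie close to a gene's start or kilobases away, so the promoter windows in RefSeq (250 bases before to 50 after the start, GRCh38.p14) show only part of the regulatory sequence. The p53 half-site consensus, which is its own reverse complement and was therefore found on both strands at once, had a match without mismatch in 6.54% of 27305 such windows. Of the 29 measured members with a window, 4 held such a match, and of the 15 called higher 2 did. The promoters of these 4 measured members are shown because they let the motif be seen beside the gene's response, with the half-site in capitals and the sequence read 5′ to 3′ along the gene's strand. PLK2 (minus strand, chr5:58460037-58460336) and RPS27L (minus strand, chr15:63157428-63157727) were higher, and AEN (plus strand, chr15:88621090-88621389) and EI24 (plus strand, chr11:125569227-125569526) did not pass the test.
PLK2: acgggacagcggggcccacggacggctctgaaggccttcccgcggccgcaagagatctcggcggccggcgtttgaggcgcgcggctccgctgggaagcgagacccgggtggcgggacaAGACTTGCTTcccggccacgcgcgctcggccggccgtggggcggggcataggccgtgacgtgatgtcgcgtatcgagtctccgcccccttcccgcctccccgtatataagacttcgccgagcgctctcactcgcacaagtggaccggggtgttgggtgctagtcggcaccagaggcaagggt
RPS27L: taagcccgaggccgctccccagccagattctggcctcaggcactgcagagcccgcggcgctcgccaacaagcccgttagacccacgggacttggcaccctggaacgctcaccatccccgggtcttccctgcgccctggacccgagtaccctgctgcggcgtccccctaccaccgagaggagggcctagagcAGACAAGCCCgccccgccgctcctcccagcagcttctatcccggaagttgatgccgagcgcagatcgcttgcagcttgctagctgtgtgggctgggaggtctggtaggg
AEN: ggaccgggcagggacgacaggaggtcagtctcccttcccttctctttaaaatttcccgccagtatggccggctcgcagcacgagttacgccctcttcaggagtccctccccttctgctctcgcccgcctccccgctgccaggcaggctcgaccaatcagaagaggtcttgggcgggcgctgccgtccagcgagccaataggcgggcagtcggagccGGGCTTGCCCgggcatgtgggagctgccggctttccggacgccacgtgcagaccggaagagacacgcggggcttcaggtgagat
EI24: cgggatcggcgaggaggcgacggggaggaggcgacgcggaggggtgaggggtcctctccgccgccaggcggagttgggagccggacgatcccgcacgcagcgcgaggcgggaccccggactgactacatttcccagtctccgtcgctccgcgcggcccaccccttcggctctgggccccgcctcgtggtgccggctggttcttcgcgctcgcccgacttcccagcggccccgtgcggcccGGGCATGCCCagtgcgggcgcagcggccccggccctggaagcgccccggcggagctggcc
The match began 132 bases before the start in PLK2, 59 in RPS27L, 34 in AEN and 10 in EI24. ZMAT3, FAS, TIGAR, SESN1 and CDKN1A, which rose, have no match in these windows, which says only that the letters are not there.

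Among the genes that control p53 or protein turnover, 3 of 4 rose and 0 fell, beside the 14.7% of all genes called higher and 17.8% called lower, and so small a group is only described. MDM2, the ubiquitin ligase that marks p53 for degradation, had signals of 265, 295 and 301 in the NFX1-91 shRNA arrays, against 213, 225 and 171 in the control arrays. All 3 arrays with the NFX1-91 hairpin lay above the 3 control arrays, and MDM2 rose (log2 fold change 0.47, SE 0.105, adjusted p = 0.00612), a call that was lost with the mean of its 5 probe sets (0.30, adjusted p = 0.298). PPM1D, a phosphatase that removes activating phosphates from p53 and its kinases, had 1377, 1444 and 1368 in the NFX1-91 shRNA arrays, against 1009, 1187 and 1127 in the control arrays. It rose as well, with no overlap between groups (log2 fold change 0.33, SE 0.0611, adjusted p = 0.00218). FBXW7, the substrate receptor of a ubiquitin ligase that degrades cyclin E and MYC, had 212, 209 and 229 in the NFX1-91 shRNA arrays, against 139, 129 and 131 in the control arrays. FBXW7 rose 1.63-fold by the ratio of group means (log2 fold change 0.64, SE 0.0836, adjusted p = 0.000267).

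MDM4, the relative of MDM2 that blocks the activation domain of p53, gave 104, 85.3 and 51.4 in the NFX1-91 shRNA arrays, against 35.8, 147 and 258 in the control arrays. The control arrays spread over a wider range than the arrays with the NFX1-91 hairpin and enclosed them, so the data set no direction (log2 fold change -0.50, 95% confidence interval -1.61 to 0.61, adjusted p = 0.509). Without control replicate 1 MDM4 was called lower (-1.18, adjusted p = 0.0121), and without control replicate 3 it was not called (0.03, adjusted p = 0.976).

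Of 10 cell cycle and growth genes 4 were higher, 4 lower and 2 not called, where 14.7% of all genes were higher and 17.8% lower. CDKN1A, which encodes the cyclin-dependent kinase inhibitor p21 and is the best known arrest gene of the pathway, had 4651, 4506 and 4373 in the NFX1-91 shRNA arrays, against 3340.3, 3110.2 and 3004 in the control arrays. The groups lay well apart and CDKN1A rose 1.43-fold by the ratio of means (log2 fold change 0.52, SE 0.0447, adjusted p = 2.20e-05). PLK2, a polo-like kinase of centriole duplication and the stress response, had 1270.5, 1302 and 1319 in the NFX1-91 shRNA arrays, against 871, 869.6 and 795 in the control arrays. PLK2, whose promoter is printed above, rose in the same manner (log2 fold change 0.61, SE 0.0508, adjusted p = 1.76e-05). SFN, stratifin, known for holding cyclin B and CDK1 in the cytoplasm, had 5072, 5163 and 5022 in the NFX1-91 shRNA arrays, against 4342, 4063 and 3826 in the control arrays. It rose by a smaller step (log2 fold change 0.32, SE 0.0449, adjusted p = 0.000425). CCNG1, an atypical cyclin that recruits a phosphatase to MDM2, had 3060.3, 2978 and 3035 in the NFX1-91 shRNA arrays, against 2501, 2793 and 2822 in the control arrays. Its groups did not overlap but lay close together (log2 fold change 0.16, SE 0.0484, adjusted p = 0.0279). The call for CCNG1 was lost without NFX1-91 shRNA replicate 1 (0.15, adjusted p = 0.0873), replicate 2 (0.17, adjusted p = 0.0725) or replicate 3 (0.16, adjusted p = 0.0781), and without a variance trend (0.16, adjusted p = 0.137). Without control replicate 1, the lowest array, the value was smaller and CCNG1 was still called (0.11, adjusted p = 0.0337).

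The 4 lower genes of this group were CCNG2, GDF15, GADD45A and BTG1. CCNG2, the relative of CCNG1 that is abundant in arrested cells and known as a FOXO target, had 247, 239 and 299 in the NFX1-91 shRNA arrays, against 446, 494 and 543 in the control arrays. The control mean was 1.89-fold the mean with the NFX1-91 hairpin, and CCNG2 fell most of all members (log2 fold change -0.88, SE 0.0989, adjusted p = 0.000103). GDF15, a secreted cytokine of the TGF-beta family that also answers to ATF4, had 1551, 1644 and 1509 in the NFX1-91 shRNA arrays, against 2173, 2401 and 2458 in the control arrays. Every array with the NFX1-91 hairpin was below every control array, and GDF15 fell (log2 fold change -0.57, SE 0.0547, adjusted p = 3.81e-05). The call was lost with the mean of its probe sets (-0.15, adjusted p = 0.380), and the direction turned without shared probe sets (0.28, adjusted p = 0.403), where a single very dim probe set is left. GADD45A, a stress sensor that binds CDK1 and PCNA, had 997, 1015 and 1052 in the NFX1-91 shRNA arrays, against 1265, 1366 and 1271 in the control arrays. It fell too (log2 fold change -0.34, SE 0.0485, adjusted p = 0.000438).

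BTG1, an antiproliferative protein that recruits the mRNA deadenylation machinery, had 732, 785 and 821 in the NFX1-91 shRNA arrays, against 836, 936 and 935 in the control arrays. BTG1 fell by the smallest step of the 5 lower members (log2 fold change -0.21, SE 0.0637, adjusted p = 0.0317). Its call was lost without control replicate 2 (-0.18, adjusted p = 0.124) or replicate 3 (-0.18, adjusted p = 0.109), and without NFX1-91 shRNA replicate 1 (-0.16, adjusted p = 0.105) or replicate 2 (-0.21, adjusted p = 0.0939), and without a variance trend (-0.21, adjusted p = 0.0961). GADD45B, the relative of GADD45A, had 253, 259 and 286 in the NFX1-91 shRNA arrays, against 256, 211 and 182 in the control arrays, with overlapping groups (log2 fold change 0.29, SE 0.115, adjusted p = 0.0831). Without control replicate 1 it was called higher (log2 fold change 0.41, adjusted p = 0.0111), and without control replicate 3 its value was smaller (0.18, adjusted p = 0.264). PLK3, another polo-like kinase, had 249, 244 and 256 in the NFX1-91 shRNA arrays, against 267, 267 and 263 in the control arrays. Its groups were apart by a narrow gap and it did not pass the test (log2 fold change -0.09, SE 0.0678, adjusted p = 0.393). Related members thus had unlike values: 0.61 for PLK2 beside -0.09 for PLK3, 0.16 for CCNG1 beside -0.88 for CCNG2, and 0.29 for GADD45B beside -0.34 for GADD45A. The differences within these pairs were not tested.

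**Figure D2:**
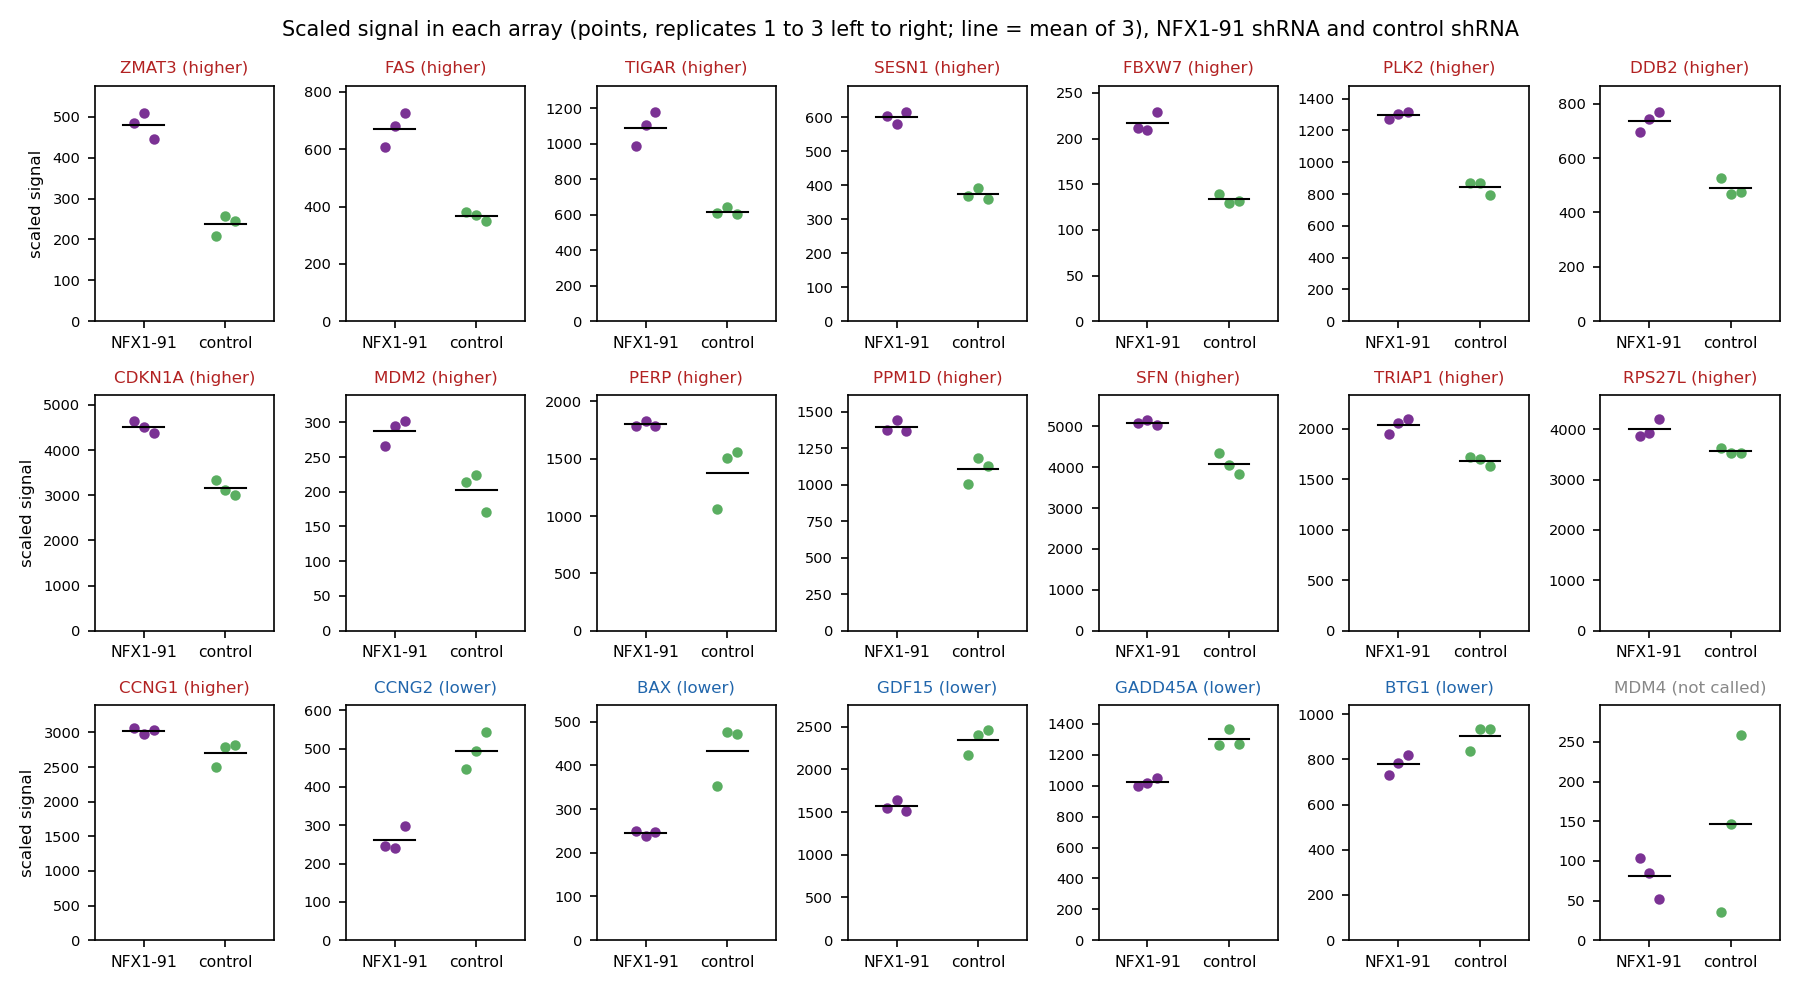
Scaled signal (y axis, linear, from 0) in each array for the 20 p53 target genes that passed the test and for MDM4, with NFX1-91 shRNA left and control shRNA right. Points are arrays and lines are means of 3 arrays: for the 20 called genes the groups do not overlap, and for MDM4 the control arrays enclose the others.

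Of 12 genes of cell death and survival 4 rose, 1 fell and 7 did not pass, beside 14.7% of all genes higher and 17.8% lower. FAS, the death receptor for Fas ligand on the cell surface, had 606, 683 and 727 in the NFX1-91 shRNA arrays, against 380.5, 371 and 349 in the control arrays. FAS rose 1.83-fold by the ratio of means (log2 fold change 0.84, SE 0.0750, adjusted p = 2.57e-05). BAX, which forms pores in the outer mitochondrial membrane, had 250.4, 239 and 248 in the NFX1-91 shRNA arrays, against 353, 477 and 472 in the control arrays. BAX fell, and the 3 arrays with the NFX1-91 hairpin lay close together below the more scattered control arrays (log2 fold change -0.77, SE 0.108, adjusted p = 0.000422). FAS belongs to the receptor route of apoptosis and BAX to the mitochondrial route, and the pair differed in direction. The death receptor TNFRSF10B and the BH3-only gene PMAIP1 were not called, so the pair does not stand for the routes.

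PERP, a membrane protein of desmosomes and of p53-dependent death, had 1790.1, 1827 and 1782 in the NFX1-91 shRNA arrays, against 1066, 1509 and 1559.5 in the control arrays. Control replicate 1 was far below the other control arrays, and PERP rose (log2 fold change 0.40, SE 0.118, adjusted p = 0.0263). The call was lost without NFX1-91 shRNA replicate 1 (0.40, adjusted p = 0.0769), replicate 2 (0.39, adjusted p = 0.0966) or replicate 3 (0.41, adjusted p = 0.0741), and without a variance trend (0.40, adjusted p = 0.0942). Without control replicate 1 PERP was still called, with a smaller value (0.23, adjusted p = 0.00226). TRIAP1, a mitochondrial lipid transfer partner known to favour survival, had 1952, 2058 and 2096 in the NFX1-91 shRNA arrays, against 1721, 1701 and 1635 in the control arrays and rose (log2 fold change 0.27, SE 0.0430, adjusted p = 0.000944). RPS27L, a paralogue of a ribosomal protein that affects MDM2, had 3873, 3925 and 4212 in the NFX1-91 shRNA arrays, against 3634, 3529 and 3533 in the control arrays. RPS27L, whose promoter is also printed above, rose by a small step (log2 fold change 0.17, SE 0.0393, adjusted p = 0.00907), and its call was lost without a variance trend (0.17, adjusted p = 0.0941).

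TNFRSF10B, a death receptor for TRAIL, had 1404, 1606 and 1563 in the NFX1-91 shRNA arrays, against 1469.9, 1528 and 1516 in the control arrays. The groups overlapped and the 95% confidence interval of the log2 fold change, -0.10 to 0.14, spanned 0 (adjusted p = 0.862). TNFRSF10C, a TRAIL receptor that lacks a death domain, had 89.6, 93.6 and 78.1 in the NFX1-91 shRNA arrays, against 44.5, 75.5 and 67.0 in the control arrays. The groups were apart, yet TNFRSF10C did not pass the test (log2 fold change 0.42, SE 0.160, adjusted p = 0.0770), and it was called higher without control replicate 2 (0.54, adjusted p = 0.0473) but not without control replicate 1 (0.24, adjusted p = 0.195). PMAIP1, the BH3-only protein NOXA, had 1668, 1779 and 1597 in the NFX1-91 shRNA arrays, against 1498, 1679 and 1712 in the control arrays, with overlap and an interval of -0.09 to 0.18 (adjusted p = 0.635).

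The other members of this group overlapped between groups. AEN, a nuclease of apoptotic cells, had a log2 fold change of 0.12 (interval -0.01 to 0.26, adjusted p = 0.165). The WAVE complex subunit CYFIP2 had a log2 fold change of 0.08 (interval -0.09 to 0.24, adjusted p = 0.491). PHLDA3, which competes with AKT for membrane lipids, had a log2 fold change of -0.09 (interval -0.25 to 0.07, adjusted p = 0.380). EI24, a protein of the endoplasmic reticulum, had a log2 fold change of -0.14 (interval -0.25 to -0.02, adjusted p = 0.0683). Without control replicate 1, AEN was called higher (log2 fold change 0.19, adjusted p = 0.0212) and EI24 lower (-0.18, adjusted p = 0.0167). AEN had a smaller value without control replicate 3 (0.07, adjusted p = 0.459), as had EI24 without control replicate 2 (-0.09, adjusted p = 0.249).

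Of 3 measured DNA repair members 1 rose, where 14.7% of all genes were higher. DDB2, which recognises ultraviolet lesions in chromatin, had 696, 745 and 771 in the NFX1-91 shRNA arrays, against 525, 466 and 477 in the control arrays. DDB2 rose 1.51-fold by the ratio of means (log2 fold change 0.58, SE 0.0653, adjusted p = 0.000109). XPC, which acts beside it in damage recognition for nucleotide excision repair, had 349, 392 and 386 in the NFX1-91 shRNA arrays, against 409.8, 400.3 and 406 in the control arrays. The groups of XPC were apart in the other direction but it did not pass the test (log2 fold change -0.11, SE 0.0658, adjusted p = 0.268). POLH, a polymerase that copies past lesions, was dim, with signals of 46.0, 42.0 and 41.7 in the NFX1-91 shRNA arrays, against 36.1, 36.8 and 39.9 in the control arrays, and did not pass (log2 fold change 0.14, SE 0.117, adjusted p = 0.408).

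The genes of metabolism, redox state and RNA binding had 3 of 4 members higher, beside 14.7% of all genes, including the member with the largest rise. ZMAT3, a zinc finger protein that binds RNA and regulates splicing, had 486, 508 and 445 in the NFX1-91 shRNA arrays, against 209, 258 and 246 in the control arrays. Its mean was 2.02-fold that of the control arrays (log2 fold change 0.97, SE 0.0886, adjusted p = 2.92e-05). TIGAR, a phosphatase that lowers glycolytic flux, had 985, 1107 and 1177 in the NFX1-91 shRNA arrays, against 609, 641 and 603 in the control arrays and rose (log2 fold change 0.80, SE 0.0676, adjusted p = 1.88e-05). SESN1, a sestrin that restrains mTORC1, had 602, 579 and 616 in the NFX1-91 shRNA arrays, against 367, 391 and 360.3 in the control arrays. It rose with little spread in either group (log2 fold change 0.66, SE 0.0598, adjusted p = 2.72e-05). TP53I3, an oxidoreductase related to quinone reductases, had 285, 318 and 311 in the NFX1-91 shRNA arrays, against 271, 265 and 255 in the control arrays. Its groups were apart but it did not pass the test (log2 fold change 0.20, SE 0.0721, adjusted p = 0.0643), and it was called higher without NFX1-91 shRNA replicate 1 (0.24, adjusted p = 0.0390).

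More than 1 probe set was available for 14 of the 33 members, and tested over all 19064 single-gene probe sets their calls did not oppose each other in any member. The signs of the log2 fold changes, called or not, agreed in 6 of these members and differed in 8. Over the 57 probe sets of all members 20 were higher and 8 lower, beside 12.6% and 14.6% of all probe sets. The 4 probe sets of FAS all rose, with log2 fold changes from 0.80 to 0.87, the 3 of SFN rose by 0.32 to 0.39, the 3 of CCNG2 fell and both of BAX fell. For BTG1 the second probe set had -0.30 (adjusted p = 0.0859). The second probe set of PMAIP1 had 870, 881 and 891 in the NFX1-91 shRNA arrays, against 929, 936 and 1070 in the control arrays. Its groups were apart, unlike those of the brightest, but it was not called (log2 fold change -0.15, adjusted p = 0.123). Of 5 MDM2 probe sets the brightest was higher and 4 were not called, with values from -0.0078 to 0.43. The next brightest of them, for example, had 256, 235 and 159 in the NFX1-91 shRNA arrays, against 130.3, 199 and 199 in the control arrays. GDF15 has a second, very dim probe set, with 2.97, 0.778 and 15.1 in the NFX1-91 shRNA arrays, against 0.791, 3.77 and 0.777 in the control arrays, which did not pass (log2 fold change 0.28, SE 0.219, adjusted p = 0.424). Both further probe sets of TNFRSF10B had log2 fold changes above that of the brightest, 0.33 and 0.31, with control replicate 1 far below the other control arrays in each and neither called (adjusted p = 0.328 and adjusted p = 0.414). For 18 members the brightest probe set is of a shared type (_s_at or _x_at), which can also read related transcripts.

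**Figure D3:**
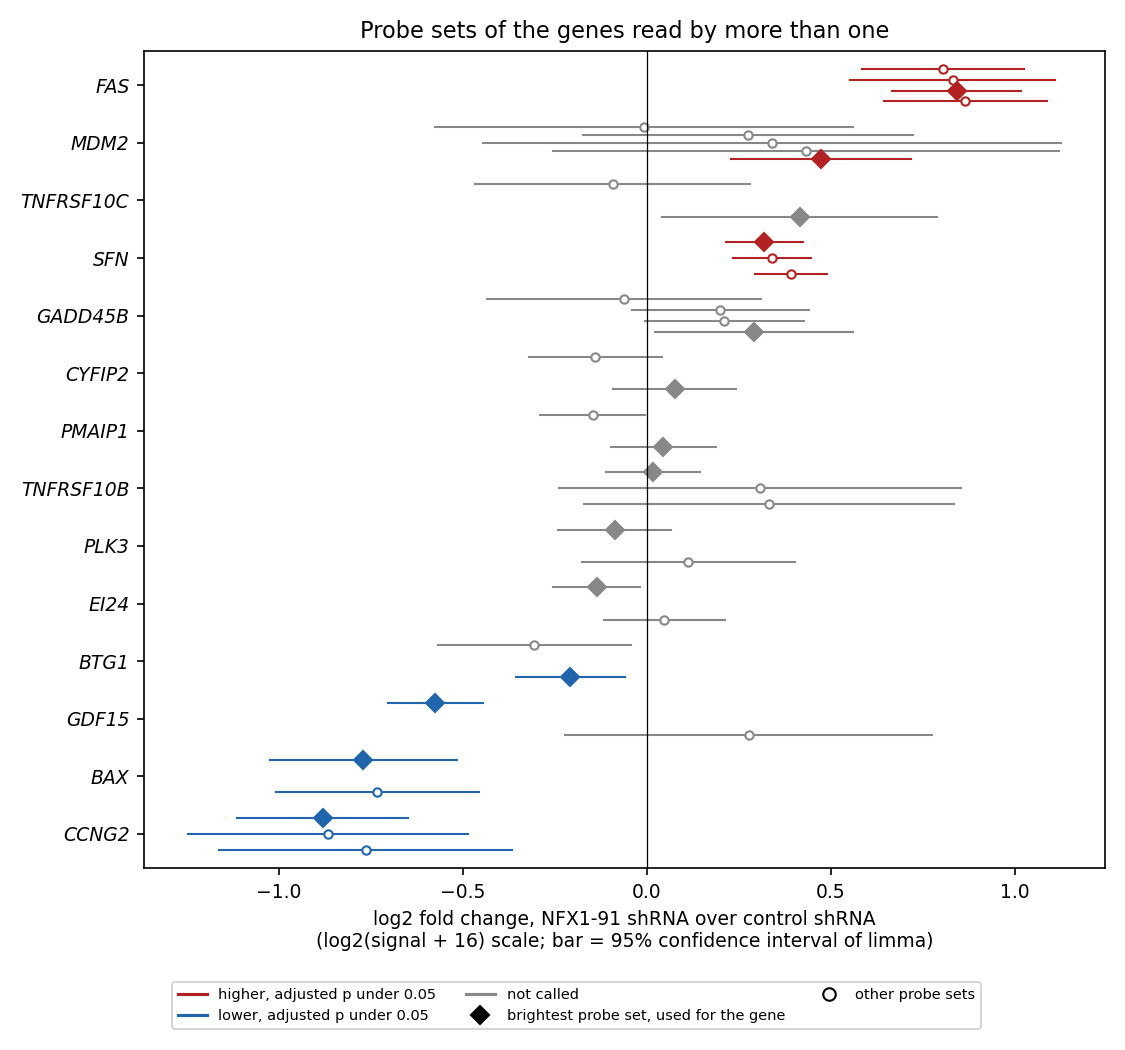
Log2 fold change (x axis, NFX1-91 shRNA over control shRNA, log2(signal + 16) scale) with 95% confidence interval for each probe set of the 14 p53 target genes (y axis) that have more than 1. All probe sets of FAS and SFN were called higher and all of CCNG2 and BAX lower, while 1 of 5 was called for MDM2.

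Array replicates did not behave alike for all members. Control replicate 1 was the lowest control array for 15 of the 33 members and the highest for 14. Its median deviation from the control mean was -0.020 over the members, against 0.017 over all genes on the log2 scale. For control replicate 2 these were 0.036 and -0.0034. Control replicate 3 was the lowest for 14 members, and NFX1-91 shRNA replicate 1 was the lowest of its group for 15. Over all genes, control replicates 1 and 3 and NFX1-91 shRNA replicate 1 were lowest for 31.7%, 37.5% and 43.2%. Without control replicate 1, 17 members were higher and 7 lower, beside 1845 and 2075 of all 11963 genes. Over the 6 counts that leave out 1 array each, the numbers ran from 13 to 17 higher and from 4 to 7 lower. The counts over all genes ran from 1265 to 1845 higher and from 1650 to 2075 lower.

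Other genes of the pathway were read from lists of genes outside the 39. Of 34 measured further p53 targets 10 rose and 5 fell, which is 29.4% and 14.7%, beside 14.7% of all genes higher and 17.8% lower, so that the lower share is no more than that of all genes. Without the dimmest 40% of genes 9 rose and 6 fell, beside 1817 and 2135 of 7178 genes. Both shares of all genes are larger in that setting, and how many of the 34 remain in it was not counted. The median log2 fold change of the 34 was 0.069. SUSD6 rose by 0.81 (adjusted p = 0.000152), the growth factor CSF1 by 0.71 (adjusted p = 0.00434) and the placental growth factor PGF by 0.47 (adjusted p = 0.00548). The apoptosome scaffold APAF1 rose by 0.36 (adjusted p = 0.0214) and the sliding clamp PCNA by 0.11 (adjusted p = 0.0245). Of those that fell, the signalling adaptor TRAF4 had the largest change, with signals of 381, 388 and 394 in the NFX1-91 shRNA arrays, against 1042, 996 and 995 in the control arrays (log2 fold change -1.35, SE 0.0512, adjusted p = 3.19e-07). TNFAIP8 had a log2 fold change of -0.66, the small GTPase RAP2B -0.58, the membrane rupture protein NINJ1 -0.46 and the secreted protein TSKU -0.40. The higher calls among these targets numbered 4 to 9 when 1 array was left out: 4 without NFX1-91 shRNA replicate 2 or 3, and 5 without control replicate 2 or 3.

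Among 24 measured genes that act on p53 or beside it, 4 were higher and 8 lower, with a median log2 fold change of -0.074. That is 16.7% and 33.3% of the list, beside 14.7% and 17.8% of all genes, so the higher share is near that of all genes. Without the dimmest 40% of genes 5 were higher and 9 lower, beside 1817 and 2135 of 7178 genes. There, too, the shares of all genes are larger, and how many of the 24 remain was not counted. KMT5A, a histone methyltransferase that also methylates p53, rose most, with 618, 595 and 654 in the NFX1-91 shRNA arrays, against 299.6, 317 and 395 in the control arrays (log2 fold change 0.86, SE 0.0959, adjusted p = 9.55e-05). The checkpoint kinase CHEK1 rose by 0.38 (adjusted p = 0.00123), the ribosomal protein RPL11, which can bind MDM2, by 0.13 and the ubiquitin ligase HUWE1 by 0.13. The p53 inhibitor PPP1R13L, known as iASPP, fell, with signals of 154, 147 and 167 in the NFX1-91 shRNA arrays, against 233, 238 and 253 in the control arrays (log2 fold change -0.58, SE 0.0832, adjusted p = 0.000489). The acetyltransferases KAT5 (-0.42) and CREBBP (-0.42), the MDM2 partner DAXX (-0.36) and the checkpoint kinase CHEK2 (-0.39) were lower too. This list therefore holds both activators and inhibitors of p53 among its lower genes.

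Cell cycle genes that are known to fall when p53 acts through p21 were set beside CDKN1A. Of 21 measured, 6 were lower and 4 higher, with a median log2 fold change of 0.0061. The lower genes are 28.6% of the list and the higher ones 19.0%, beside 17.8% and 14.7% of all genes. Without the dimmest 40% of genes, a setting in which all 21 remain, 7 of the list were lower and 5 higher. All genes had 2135 lower and 1817 higher of 7178, so both shares of the list are near those of all genes there. MYBL2, a transcription factor of proliferating cells, had 192, 237 and 227 in the NFX1-91 shRNA arrays, against 784, 748 and 737 in the control arrays (log2 fold change -1.72, SE 0.0804, adjusted p = 7.53e-07). FOXM1, which drives mitotic genes, had 385, 421 and 432 in the NFX1-91 shRNA arrays, against 816, 754 and 716 in the control arrays (log2 fold change -0.86, SE 0.0687, adjusted p = 1.38e-05). Both fell with groups far apart. HMGB2 (-0.37), the kinase CDK1 (-0.29) and CDC20 (-0.27), an activator of the anaphase-promoting complex, were lower by smaller steps. In the other direction the mitotic kinase PLK1 rose by 0.34 (adjusted p = 0.00721), the kinesin KIF23 by 0.32, the lamin LMNB1 by 0.21 and the checkpoint kinase BUB1 by 0.19. Without NFX1-91 shRNA replicate 2 the higher calls of this list numbered 2. The CHR element, TTTGAA on either strand, through which such genes are known to be repressed, occurred in 9 of 17 of their promoter windows and in 15.4% of all windows. Both CDK1 and CDC20, which fell, and PLK1 and KIF23, which rose, hold it. MYBL2, which fell most, and LMNB1 and BUB1, which rose, lack it in their windows, and FOXM1 and HMGB2 had no window.

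**Figure D4:**
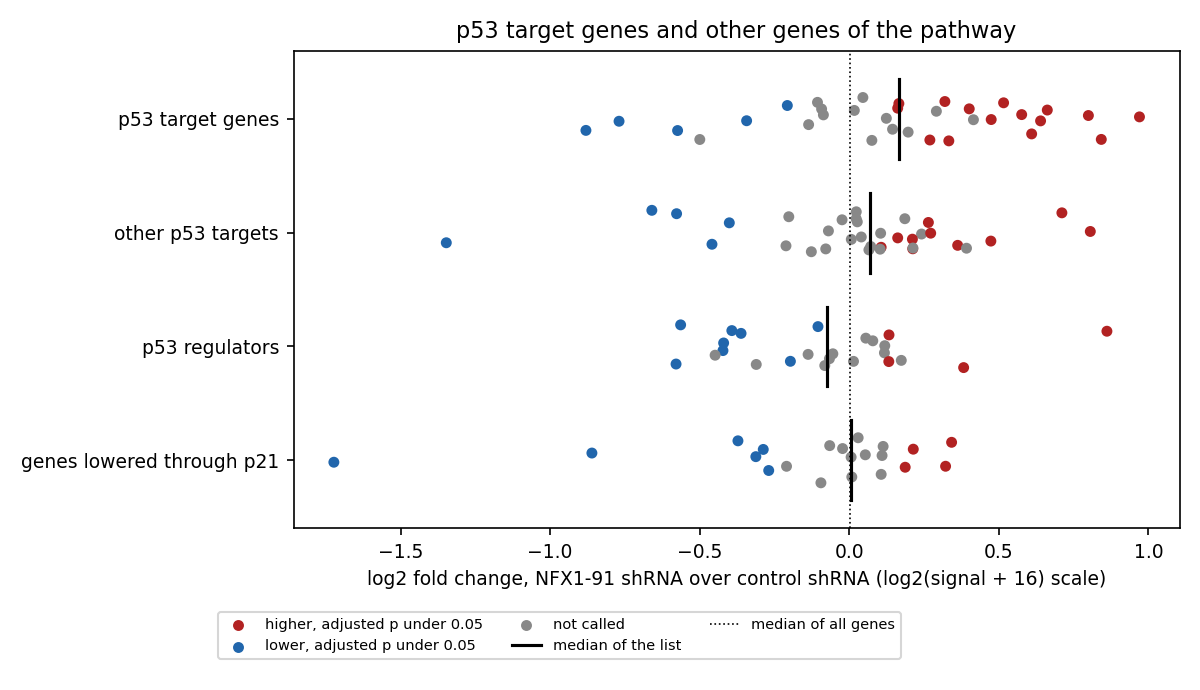
Log2 fold change (x axis, NFX1-91 shRNA over control shRNA, log2(signal + 16) scale) of each gene in 4 lists (y axis), coloured by call, with the median of each list as a solid line and that of all genes as a dotted line. The medians are 0.17 for the p53 target genes, 0.069 for further targets, -0.074 for regulators and 0.0061 for genes lowered through p21.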

How the data were processed

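Biotinylated cRNA from 5 µg of total RNA was hybridised to Affymetrix arrays, per the labels' protocols, with 3 arrays in each of 2 groups named in the labels. The deposited values are intensities on a linear scale, each array summing to 1 as the values show; no source used here gives the authors' probe summarisation. All arrays were multiplied by 1 factor to a mean of 500. Between 397 and 451 values per array repeat 1 low value, and 24.1% to 25.9% of probe sets lie below the offset of 16. Platform annotation gave 19064 of 22215 probe sets 1 gene, 1043 several and 2108 none; 19052 gene identifiers matched RefSeq (GRCh38.p14) and 0 symbols changed. limma 3.58.1 under R 4.3.3 compared the groups (variance trend, unpaired, two-sided); figures used Python 3.11.15 and matplotlib 3.10.9. The members, lists and tests were chosen with earlier results of these data known. Genes named were all members, NFX1, and of each other list up to 5 called genes per direction with the smallest adjusted p; marker genes at low signal and genes left uncalled were named after their values were seen. On simulated data with 200 changed genes of 11963, 24.2% of 1.25-fold, 58.2% of 1.5-fold, 87.4% of 2-fold and 98.6% of 4-fold changes were recovered, and 4.26% of calls were false. In the data 3890 genes were called, far more than were changed in the simulation. The p-value cutoff of the adjustment depends on that number, so these rates do not carry over to this comparison. Pearson correlation was 0.992 to 0.995 within groups and 0.983 to 0.985 between them. The alternatives changed the scaling (quantile normalization or median centring), the offset (1, 64 or none), the variance model (no trend) and the probe sets of a gene. For the probe sets, their mean was taken, or those of the shared type were dropped where the gene had another. Others dropped the dimmest 40% of genes, added a replicate block, dropped single arrays, or asked for an adjusted p under 0.01. A last one asked for 1.5-fold on the log2(signal + 16) scale.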

Additional observations from a re-analysis of the deposited data

How the results depend on the processing

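Direction and call held under each of the 16 alternative fits for 14 of the 20 called p53 target genes, 11 higher and 3 lower, with a highest adjusted p of 0.0213. The others were BTG1, CCNG1, PERP, RPS27L, MDM2 and GDF15. Not every alternative could move every gene. For the 19 members with 1 probe set, the mean of probe sets repeats the main log2 fold change. Members read only by shared probe sets, such as CDKN1A, FAS, SESN1, FBXW7 and BAX, kept them in the fit without shared probe sets. GDF15 reversed to 0.28 without shared probe sets, through a probe set dimmer than the offset (adjusted p = 0.403), and read -0.15 with the mean of its probe sets. Uncalled members that changed sign were PLK3 (0.013), PMAIP1 (-0.051) and CYFIP2 (-0.032) with the mean of probe sets, and GADD45B (-0.062) and TNFRSF10C (-0.092) without shared probe sets. With 1 array left out, MDM4 ran from -1.18 to 0.026, TNFRSF10B from -0.0216 to 0.0745 and PMAIP1 from -0.0133 to 0.0820. Without a variance trend BTG1, CCNG1, PERP and RPS27L were not called. In that fit 12 members were higher and 4 lower, beside 1471 and 1877 of all 11963 genes. With a minimum of 1.5-fold, higher and lower genes numbered 6 and 2 for the members, 2 and 2 for further targets, 1 and 0 for regulators and 0 and 2 for genes lowered through p21. At a threshold of 0.01, 3 further targets and 2 genes lowered through p21 were higher, and without a variance trend 4 further targets and 2 regulators were higher. Leaving out 1 array gave 4 to 9 higher further targets and 2 to 5 higher genes lowered through p21. Same-numbered arrays did not deviate together (correlations -0.028, 0.081 and -0.021). With the replicate block 15 members were higher and 5 lower, and 3598 genes were called in place of 3890.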

Other observations

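Probe sets annotated to several genes were kept out of the comparison. One of them covers BBC3, the BH3-only protein PUMA, together with the microRNA genes MIR3190 and MIR3191. Its signals were 139, 149.5 and 153 in the NFX1-91 shRNA arrays, against 145, 171 and 175 in the control arrays. The groups overlapped, and the log2 fold change was -0.14 (SE 0.0989, limma adjusted p = 0.373 over all probe sets). Of the 2 probe sets that read TNFRSF10C together with a neighbouring noncoding gene, 1 had 69.0, 79.1 and 62.7 in the NFX1-91 shRNA arrays, against 51.0, 54.1 and 51.8 in the control arrays. Its groups were apart, with a log2 fold change of 0.33 (SE 0.119, limma adjusted p = 0.0757). The other had a log2 fold change of 0.42 (limma adjusted p = 0.135) with overlapping groups.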
